A study of Mus musculus with 8 samples.

Results

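A set of 35 genes of the splicing machinery were followed across the 3 genotypes of a mouse series on Ott1, the gene now named Rbm15. They are SR proteins, Tra2 proteins, snRNP and spliceosome subunits, hnRNP proteins and 3 further splicing regulators. They were chosen by name, and their probes were found through the RefSeq transcript that each array probe is assigned to. Of the 35 genes, 34 had a probe, among 13971 genes with a named probe in all, and 39 probes read them. No probe was matched to Srsf6, so its expression is not analysed here. All 39 probes were above background on all 8 arrays, and none was saturated or missing.

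RNA came from whole E11.5 embryos whose parents carried an Ott1 allele of low expression. The wild type embryos were numbers 11 and 13 (n = 2), the heterozygous embryos numbers 3, 10 and 15 (n = 3) and the homozygous embryos numbers 2, 7 and 16 (n = 3). Embryos were the replicates, and 1 one-colour CodeLink oligonucleotide array was read per embryo. The labels give no strain, sex, litter or construct of the allele, and they call all 3 genotypes, the wild type included, knockdown samples. No probe was matched to Rbm15, so the lowered expression was not checked in these arrays.

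Pre-mRNA splicing removes introns in the spliceosome, a machine of small nuclear RNAs bound to proteins. The U1 particle recognises the 5′ splice site, U2 and its helpers the branch point and 3′ splice site, and U5 with U4 and U6 joins for catalysis. SR proteins mostly promote the use of nearby exons, whereas hnRNP proteins often repress it. Rbm15 is a nuclear RNA-binding protein of the Spen family that takes part in m6A methylation, splicing and mRNA export. The arrays read the transcript level of each splicing factor, not which exons its targets used.

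None of the 34 genes passed the test in any comparison of genotypes (limma, Benjamini-Hochberg adjusted over all tested probes, threshold 0.05). Over all tested probes, 0.107% passed between the 3 homozygous and the 5 other embryos, 0.0342% between homozygous and wild type, 0% between heterozygous and wild type and 0.0214% between homozygous and heterozygous. The smallest adjusted p of any of the 34 genes was 0.185, for Srsf10 in homozygous against other embryos. Without adjustment, 4 of 34 genes (11.8%) had a p under 0.05 in that comparison, against 20% of all probes, and all 4 had lower means in homozygous embryos. They were Srsf10, Hnrnpc, Sf3a1 and Snrpd3. The share was 3 of 34 (8.82%) against 15.3% of all probes between homozygous and wild type, 0 of 34 against 2.3% between heterozygous and wild type, and 1 of 34 (2.94%) against 11.6% between homozygous and heterozygous. All of these comparisons share arrays.

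The regions upstream of 4 genes of the set are shown, and no test of expression here uses them. Srsf10, Hnrnpc and Snrpd3 were 3 of the 4 genes with an unadjusted p under 0.05, and Prpf19 was read differently by its 2 probes. Each region is the 250 bases before a RefSeq transcription start in GRCm38.p6, written 5′ to 3′ on the gene's strand. Capitals mark the CCAAT box as CCAAT, the GC box, for which the letters searched were GGGCGG, and an ETS site, for which they were CCGGAAG, each on both strands. In the Snrpd3 window a reversed GC box and a CCAAT box overlap.
Srsf10 (chr4:135855821-135856070, + strand): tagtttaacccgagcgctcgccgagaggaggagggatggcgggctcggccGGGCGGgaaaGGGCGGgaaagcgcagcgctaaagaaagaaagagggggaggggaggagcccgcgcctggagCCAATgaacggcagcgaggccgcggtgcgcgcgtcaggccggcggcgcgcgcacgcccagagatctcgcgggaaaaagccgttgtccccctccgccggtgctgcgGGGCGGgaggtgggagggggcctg
Snrpd3 (chr10:75517792-75518041, + strand): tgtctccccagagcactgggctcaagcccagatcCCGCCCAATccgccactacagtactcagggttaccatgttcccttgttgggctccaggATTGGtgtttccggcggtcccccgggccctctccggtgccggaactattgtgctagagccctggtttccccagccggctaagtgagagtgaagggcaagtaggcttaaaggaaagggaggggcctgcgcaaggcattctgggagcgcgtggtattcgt
Hnrnpc (chr14:52104022-52104271, - strand): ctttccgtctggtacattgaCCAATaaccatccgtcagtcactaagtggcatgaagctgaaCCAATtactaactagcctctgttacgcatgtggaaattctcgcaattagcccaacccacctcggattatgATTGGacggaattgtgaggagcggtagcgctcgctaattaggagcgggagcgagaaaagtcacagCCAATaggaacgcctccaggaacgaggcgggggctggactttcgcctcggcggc
Prpf19 (chr19:10894981-10895230, + strand): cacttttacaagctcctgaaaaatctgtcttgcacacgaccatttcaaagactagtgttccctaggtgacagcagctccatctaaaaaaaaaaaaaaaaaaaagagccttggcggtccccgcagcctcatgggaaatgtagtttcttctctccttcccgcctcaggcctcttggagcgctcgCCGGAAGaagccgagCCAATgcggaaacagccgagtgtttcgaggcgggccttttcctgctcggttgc
The Srsf10 window held 3 GC boxes and 1 CCAAT box, the Snrpd3 window 1 GC box and 2 CCAAT boxes, the Hnrnpc window 4 CCAAT boxes and the Prpf19 window shown 1 CCAAT box and 1 ETS site. A second Prpf19 window (chr19:10898395-10898644, + strand), not shown, held 1 CCAAT box and no GC box or ETS site. The window of Sf3a1, which also had an unadjusted p under 0.05, is not shown and held 2 GC boxes and 1 ETS site. RefSeq windows were listed for 30 of the 35 genes, Srsf6 included, 36 windows in all, some of which overlap. The GC box lay in 61.1% of these 36 windows against 32.7% of 32851 windows of all genes, the CCAAT box in 50% against 33.8%, the ETS site in 22.2% against 6.91%, and the TATA box, searched as TATAAA, in 13.9% against 12.4%. The median GC content was 60.4% against 52.4%, and the median number of CpG dinucleotides 22 against 6. The windows compared were not matched for base composition or for expression of the gene, and the part of these in the shares was not tested. A match is a description of letters and not of binding.

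Splicing factor transcripts varied less between embryos than the typical tested probe, but they were also brighter. The median SD of log2 intensity over the 8 embryos was 0.136 for the 34 genes and 0.221 for all tested probes, and 27 of the 34 lay below the latter. The highest and lowest embryo lay less than 0.5 log2 apart for 23 of 34 genes, against 33.0% of all probes. They lay more than 1 apart for 3 genes, Srsf2, Sf3b1 and Sf3a1, against 25.6% of all probes. Of these, Sf3a1 and Sf3b1 were read by dim probes. The median raw intensity of the 34 genes was 2794 to 3572 per array, and that of all gene probes was 48.3 to 87.9. These comparisons of spread were not matched for brightness, and the part of brightness in them was not tested.

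**Figure D1:**
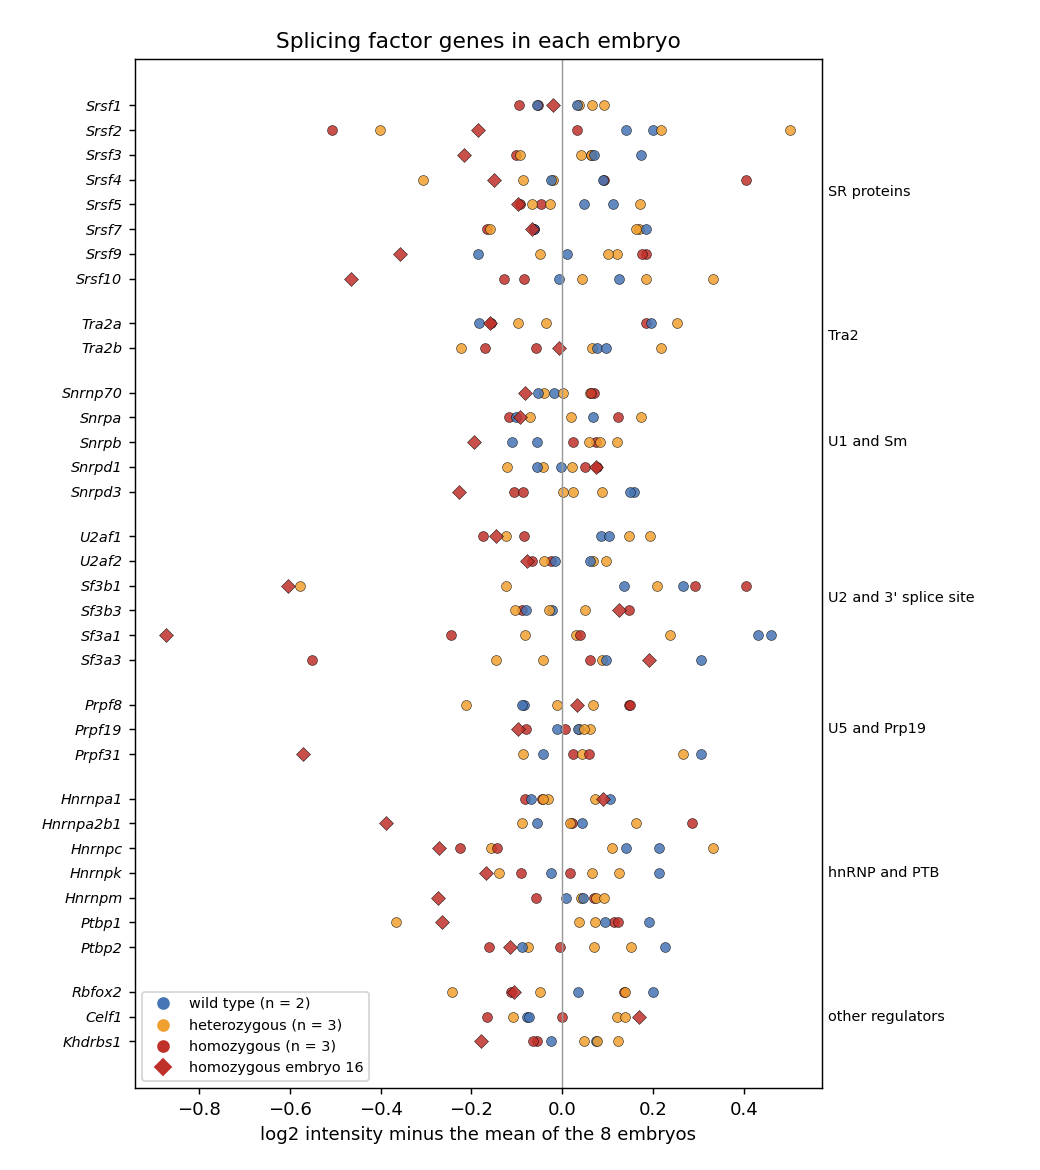
Log2 intensity of each splicing factor gene (rows, by class) minus its mean over the 8 embryos, with 1 point per embryo coloured by genotype and a diamond for homozygous embryo 16. The widest rows are Sf3a1, Srsf2 and Sf3b1, and embryo 16 is the lowest point in 17 of 34 rows.

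Embryo 16 had the lowest value in 17 of 34 genes (50%), against 38.3% of all probes. The median deviation of the 34 genes from their means was -0.15 in this embryo, and it lay between -0.056 and 0.092 in the other 7. Over all probes this median deviation was -0.12 in embryo 16 and between -0.015 and 0.043 in the other 7. The array of embryo 16 also had the most spots marked and set missing, 1634 against 206 to 616 on the others. It had the most probes above background, 26619 against 22526 to 23721. The part of these array traits in the low values was not tested. Wild type embryo 11 had the highest value in 9 of 34 genes (26.5%), against 11.3% of all probes. Array brightness moved with genotype: the median raw intensity was 61.4, 61.5 and 87.9 in homozygous embryos 2, 7 and 16 and 48.3 to 57.6 in the 5 others. Its part in the values here was not tested, and array brightness and homozygosity cannot be told apart. Y-linked probes were low in embryos 3, 15 and 16 (means of 2 probes 5.03, 4.34 and 4.04, against 6.82 to 7.11 in the others).

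In homozygous against other embryos, the median log2 difference of the 34 genes was -0.091, and that of all tested probes was -0.063. The difference was negative for 26 of 34 genes (76.5%) and for 60.2% of all probes. For 27 genes it was smaller than 0.2 in size. The 95% interval lay within -0.5 to 0.5 for 26 genes and within -1 to 1 for 33, and it held 0 for 30. The median half-width of the interval was 0.24, so a difference of that size was not detectable for many genes with 3 and 5 arrays. The intervals are not adjusted for the number of probes, and larger differences also failed the adjusted threshold. Sf3a1, at -0.57, was one of these (limma adjusted p = 0.204). All 3 homozygous values lay below all 5 others for 3 of 34 genes (8.82%), Srsf10, Snrpd3 and Khdrbs1, against 9.69% of all probes. They lay above for 1 of 34 (2.94%), Snrpd1, against 4.96%. Without embryo 2 the count below was 9, against 14% of all probes, and without embryo 16 the count above was 6, against 9.48%.

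**Figure D2:**
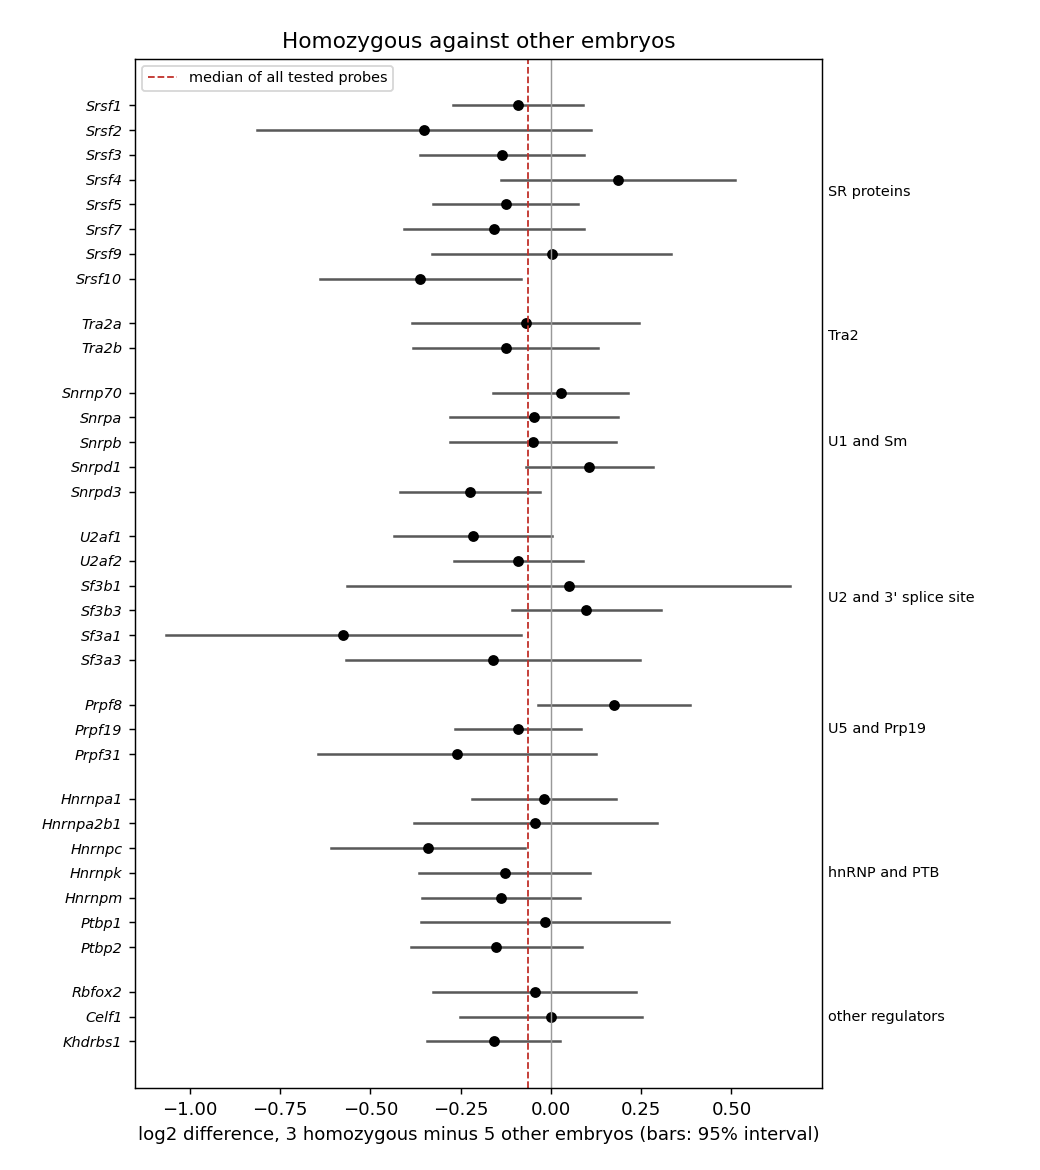
Log2 difference between the 3 homozygous and the 5 wild type and heterozygous embryos for each gene (point) with its 95% interval (bar), by class. The intervals of 30 of 34 genes hold 0, and the dashed line marks the median of all tested probes, -0.063.

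SR proteins bind exonic enhancers through RNA recognition motifs and contact the spliceosome through their serine- and arginine-rich tails. The median difference of the 8 SR genes with a probe was -0.13 in homozygous against other embryos, with 6 of 8 negative. Srsf10, a splicing regulator that turns repressive when dephosphorylated, had log2 intensities of 10.91 and 10.78 in wild type, 11.12, 10.83 and 10.97 in heterozygous and 10.66, 10.70 and 10.32 in homozygous embryos. The 3 homozygous values were the lowest, with embryo 16 lowest of all, and did not overlap the others. The difference was -0.36 (SE 0.12, 95% interval -0.64 to -0.083, limma adjusted p = 0.185), and it was -0.24 (adjusted p = 0.346) without embryo 16, with adjusted p-values of 0.126 to 0.346 over all alternatives. Against heterozygous embryos alone it was -0.41 (SE 0.14, adjusted p = 0.399), and against wild type -0.29 (adjusted p = 0.407). Heterozygous minus wild type was 0.13 (interval -0.24 to 0.49).

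Srsf4, which influences splice site choice, was among the few genes with a higher homozygous mean. It was at 7.80 and 7.69 in wild type, 7.63, 7.69 and 7.40 in heterozygous and 8.12, 7.80 and 7.56 in homozygous embryos. The homozygous values overlapped the others, and embryo 2 stood highest. The difference was 0.19 (interval -0.14 to 0.51, adjusted p = 0.479), and against heterozygous embryos 0.25 (adjusted p = 0.533). Against the 5 others it was 0.041 without embryo 2, 0.32 without embryo 16 and 0.00018 with the authors' deposited values.

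Srsf2, which also links splicing to transcription, varied most among the SR genes. Its values were 11.47 and 11.53 in wild type, 10.93, 11.83 and 11.54 in heterozygous and 11.36, 10.82 and 11.14 in homozygous embryos. Heterozygous embryo 3 lay between the low homozygous embryos, so homozygous and heterozygous values overlapped, and the difference of -0.35 had an interval of -0.81 to 0.11. Srsf1, one of the first SR proteins described, differed by -0.091 (interval -0.27 to 0.089), and its 8 values spanned 10.96 to 11.14. The other SR genes were Srsf3, which also serves mRNA export, at -0.14 (interval -0.36 to 0.091), Srsf5 at -0.13 (-0.33 to 0.074), Srsf7, another export adapter, at -0.16 (-0.41 to 0.091) and Srsf9 at 0.0017 (-0.33 to 0.33). Homozygous values overlapped those of the 5 other embryos in each of these 4 genes. Both wild type values of Srsf3 lay above the other 6 embryos, and the homozygous values of Srsf5 lay below both wild type values. Over the set, homozygous values lay below both wild type values in 11 of 34 genes (32.4%), against 25.2% of all probes.

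Tra2a and Tra2b encode SR-like proteins that activate exons with purine-rich enhancers. Tra2a spanned 11.72 to 12.16 over the embryos and Tra2b 12.29 to 12.73, and homozygous values overlapped those of the 5 others in both genes. In Tra2b they lay below both wild type values. Homozygous minus other was -0.070 (interval -0.38 to 0.24) for Tra2a and -0.13 (-0.38 to 0.13) for Tra2b.

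The U1 and Sm genes encode the U1 proteins (Snrnp70 and Snrpa) and members of the Sm ring that is shared by most spliceosomal snRNPs (Snrpb, Snrpd1 and Snrpd3). They were read by bright probes, with a median SD over the embryos of 0.11, and their median difference was -0.046. Snrpd3, the SmD3 protein, was at 12.28 and 12.27 in wild type, 12.21, 12.12 and 12.14 in heterozygous and 12.01, 12.03 and 11.89 in homozygous embryos. The 3 genotypes formed 3 ranges without overlap, wild type highest and homozygous lowest. Homozygous minus other was -0.22 (SE 0.085, interval -0.42 to -0.031, adjusted p = 0.208), and homozygous minus wild type was -0.29 (SE 0.11, adjusted p = 0.284). Over all 34 genes, the genotype means were ordered in this way in 14, against 31.6% of all probes, and in the opposite way in 3, against 20.1%.

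Snrpd1, the SmD1 protein of the same ring, was at 12.41 and 12.36 in wild type, 12.30, 12.37 and 12.44 in heterozygous and 12.49, 12.47 and 12.49 in homozygous embryos. The homozygous values lay just above all others, with embryo 15 the nearest. Homozygous minus other was 0.11 (SE 0.078, interval -0.070 to 0.28, adjusted p = 0.455), and the sign was negative with median-scaled arrays and with the authors' deposited values, at -0.29 and -0.32. Snrpb, the SmB protein, was at 13.15 and 13.09 in wild type, 13.29, 13.26 and 13.32 in heterozygous and 13.28, 13.23 and 13.01 in homozygous embryos. The heterozygous values were above both wild type values, and the homozygous values lay on both sides of the wild type pair. For Snrpb, heterozygous minus wild type was 0.17 (interval -0.11 to 0.45). Over the set, heterozygous values lay above both wild type values in 3 of 34 genes (8.82%), against 9.2% of all probes. Snrnp70 differed by 0.027 (-0.16 to 0.21) between homozygous and other embryos, and Snrpa by -0.046 (-0.28 to 0.19).

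U2af1 and U2af2 encode the U2AF heterodimer that recognises the 3′ splice site, and the Sf3a and Sf3b genes encode subunits of the U2 particle that grips the branch point. The median difference of these 6 genes was -0.12, with 4 of 6 negative. U2af1 was at 12.10 and 12.12 in wild type, 12.17, 11.90 and 12.21 in heterozygous and 11.94, 11.85 and 11.87 in homozygous embryos. Heterozygous embryo 10 lay within the homozygous range and the 4 other values above it. The difference was -0.22 (interval -0.43 to 0.0032, adjusted p = 0.255). For U2af2 it was -0.090 (-0.27 to 0.089) on the brighter probe and -0.22 (-0.48 to 0.048) on the second.

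Sf3a1 had the widest spread and the largest difference of the 34 genes, on a dim probe. It was at 5.70 and 5.73 in wild type, 5.31, 5.51 and 5.19 in heterozygous and 5.03, 5.31 and 4.40 in homozygous embryos. Both wild type values lay highest and embryo 16 far below the rest, while homozygous embryo 7 lay within the heterozygous range. The difference from the 5 others was -0.57 (SE 0.22, interval -1.07 to -0.084, adjusted p = 0.204), and -0.33 (adjusted p = 0.40) without embryo 16, with adjusted p-values of 0.0741 to 0.40 over all alternatives. It was -0.22 under normexp background correction. Homozygous minus wild type was -0.80 (SE 0.25, adjusted p = 0.249), and heterozygous minus wild type -0.38 (interval -0.97 to 0.20).

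Sf3b3 was at 11.66 and 11.72 in wild type, 11.64, 11.79 and 11.71 in heterozygous and 11.65, 11.89 and 11.87 in homozygous embryos. Embryo 2 lay at the lower end and embryos 7 and 16 at the upper, and homozygous minus wild type was 0.11 (interval -0.17 to 0.40). On the second Sf3b3 probe that difference was 0.095 (-0.19 to 0.38), and homozygous minus other was 0.018 (-0.20 to 0.24). The embryos were ordered otherwise there, with heterozygous embryo 3 highest at 11.89. Sf3b1, whose protein contacts the branch point directly, gave 0.049 with a wide interval of -0.57 to 0.66 in homozygous against other embryos. Its probe was dim, and its 8 values spanned 5.54 to 6.55, with the lowest in homozygous embryo 16 and heterozygous embryo 15. Sf3a3 gave -0.16 (-0.57 to 0.25).

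Prpf8 is the U5 protein at the catalytic centre of the spliceosome, Prpf31 holds the tri-snRNP together, and Prpf19 is the ubiquitin ligase of the complex that stabilises the activated spliceosome. Prpf8 was at 10.53 and 10.52 in wild type, 10.68, 10.60 and 10.40 in heterozygous and 10.76, 10.76 and 10.64 in homozygous embryos. Embryos 2 and 7 lay above every other embryo, and embryo 16 overlapped heterozygous embryo 3. The homozygous difference was 0.17 (SE 0.092, interval -0.035 to 0.38, adjusted p = 0.314), and it was -0.12 with median-scaled arrays and -0.15 with the authors' deposited values. Prpf31 differed by -0.26 (-0.65 to 0.13), with embryo 16 lowest at 7.29 and the other 7 embryos between 7.77 and 8.17. Without embryo 16 the Prpf31 difference was -0.057.

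Prpf19 was read by 2 probes that carry the same RefSeq accession, and they differed in how they separated the genotypes. The brighter probe, GE128215, gave 12.60 and 12.64 in wild type, 12.65, 12.67 and 12.66 in heterozygous and 12.62, 12.53 and 12.51 in homozygous embryos, a difference of -0.091 (interval -0.27 to 0.083). The dimmer probe, GE102237, gave 9.89 and 9.77 in wild type, 9.60, 9.49 and 9.91 in heterozygous and 9.19, 9.10 and 9.05 in homozygous embryos. Every homozygous value of the dimmer probe lay below every other value, whereas on the brighter probe embryo 2 lay among the others. The difference of the dimmer probe was -0.62 (SE 0.12, interval -0.89 to -0.34, adjusted p = 0.108), its difference from wild type -0.71 (adjusted p = 0.179) and from heterozygous embryos -0.55 (adjusted p = 0.351).

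The dimmer probe's log2 intensity minus the brighter probe's was -3.44 ± 0.019 (SD, n = 3) in homozygous and -2.91 ± 0.20 (SD, n = 5) in the other embryos, without overlap. Where on the transcript either probe lies is not given in the sources used here. Under normexp background correction and under a trended robust prior the dimmer probe passed the threshold (adjusted p = 0.0494 and 0.0361); over the 20 alternatives run for it the largest adjusted p was 0.277. The gene was singled out after its values were seen. For the 4 other genes with 2 probes, Hnrnpa2b1, Rbfox2, Sf3b3 and U2af2, the difference between the probes overlapped between homozygous and other embryos.

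**Figure D3:**
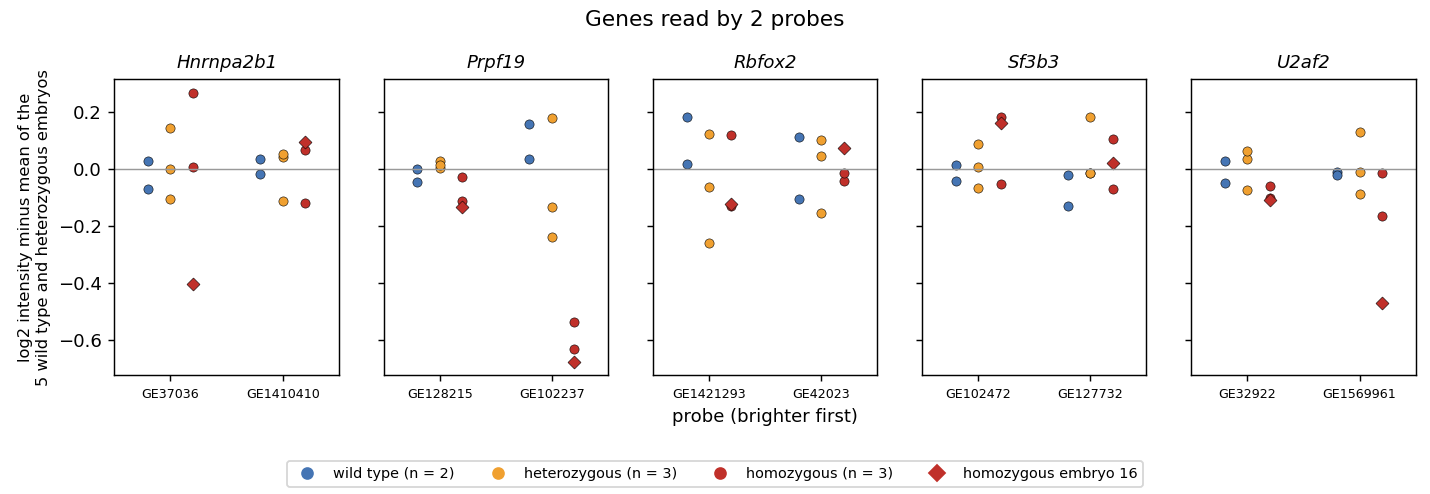
Log2 intensity of both probes of the 5 genes read by 2 probes, minus the mean of the 5 wild type and heterozygous embryos, with 1 point per embryo and the brighter probe on the left. Only the dimmer Prpf19 probe has all 3 homozygous embryos clear of the others, with a difference of -0.62.

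hnRNP proteins package nascent transcripts and often oppose SR proteins, and the polypyrimidine tract proteins Ptbp1 and Ptbp2 repress exons beside pyrimidine tracts. All 7 of these genes had negative differences in homozygous against other embryos, with a median of -0.13, and none passed. The sign was not stable for 3 of them: without embryo 16 Hnrnpa2b1 was at 0.14 and Ptbp1 at 0.11, array weights gave 0.12 and 0.051, Ptbp1 was at 0.010 under cyclic loess, and Hnrnpa1 was at 0.015 without embryo 2. Hnrnpc, which binds uridine tracts, was at 11.69 and 11.61 in wild type, 11.32, 11.58 and 11.81 in heterozygous and 11.25, 11.33 and 11.20 in homozygous embryos. Heterozygous embryo 3 lay within the homozygous range, and the other 4 lay above it. The difference was -0.34 (SE 0.12, interval -0.61 to -0.072, adjusted p = 0.187), and -0.31 without embryo 16. Against wild type it was -0.39 (SE 0.16, adjusted p = 0.307), and against heterozygous embryos -0.31 (adjusted p = 0.436).

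Ptbp1 was at 11.15 and 11.24 in wild type, 11.12, 11.09 and 10.69 in heterozygous and 11.17, 11.17 and 10.79 in homozygous embryos. Embryos 15 and 16 stood below the other 6, which lay close together. Homozygous minus other was -0.016 (interval -0.36 to 0.33), and heterozygous minus wild type -0.23 (-0.66 to 0.20). Ptbp2, the form used in developing neurons, differed by -0.15 (-0.39 to 0.085), and its homozygous values of 9.98, 9.82 and 9.87 overlapped the others. The mean of 15 neuron markers, 14 of them above background on all arrays, was 9.19 to 9.33 in wild type, 8.26 to 9.33 in heterozygous and 8.28 to 8.80 in homozygous embryos, and its part in the Ptbp2 value was not tested. In whole-embryo RNA, fewer cells of a type and less RNA per cell cannot be told apart.

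The shuttling protein genes Hnrnpa1 and Hnrnpa2b1 differed by -0.019 (interval -0.22 to 0.18) and -0.043 (-0.38 to 0.29). The second Hnrnpa2b1 probe gave 0.014 (-0.19 to 0.22). Hnrnpk, which binds cytidine-rich RNA, differed by -0.13 (-0.37 to 0.11), and Hnrnpm by -0.14 (-0.36 to 0.080). In Hnrnpm the 5 wild type and heterozygous values lay between 13.03 and 13.11, with homozygous embryos 7 and 16 below them at 12.96 and 12.75 and embryo 2 among them at 13.09.

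Khdrbs1, Rbfox2 and Celf1 are regulators that bind short motifs near alternative exons. Khdrbs1, known as Sam68, was at 10.02 and 9.92 in wild type, 10.06, 9.99 and 10.02 in heterozygous and 9.89, 9.88 and 9.76 in homozygous embryos. The homozygous values were the lowest 3, close below wild type embryo 13. Homozygous minus other was -0.16 (SE 0.081, interval -0.34 to 0.026, adjusted p = 0.301), and homozygous minus heterozygous -0.18 (adjusted p = 0.474).

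Rbfox2, which binds GCAUG, was at 9.89 and 9.72 in wild type, 9.64, 9.44 and 9.82 in heterozygous and 9.82, 9.57 and 9.58 in homozygous embryos. All 3 genotypes overlapped, and heterozygous minus wild type was -0.17 (interval -0.53 to 0.19). The second, dimmer Rbfox2 probe gave -0.0069 (-0.31 to 0.30) for the same comparison. Celf1 was at 9.21 and 9.22 in wild type, 9.41, 9.43 and 9.18 in heterozygous and 9.29, 9.12 and 9.46 in homozygous embryos. Wild type values lay inside the range of both other genotypes, and homozygous minus other was 0.00011 (interval -0.25 to 0.25).

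Between heterozygous and wild type embryos, the median difference of the 34 genes was -0.018, against -0.0054 for all probes, with 19 of 34 negative. The 95% interval held 0 for all 34 genes and lay within -0.5 to 0.5 for 25. The median was -0.14 between homozygous and wild type, against -0.071 for all probes, with 26 of 34 negative, and -0.076 without embryo 16. Only 18 genes had an interval within -0.5 to 0.5 there, with 2 wild type arrays. Between homozygous and heterozygous embryos the median was -0.097, against -0.060, again with 26 of 34 negative.

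How far below 0 the homozygous differences lay turned on the scaling between arrays. Quantile normalization, used above, gave a median of -0.091 for the 34 genes, and cyclic loess gave -0.090, with all probes at -0.063 and -0.0068. With median-scaled arrays the median was -0.43 with all probes at -0.22, and with the authors' deposited values, where each array is divided by 1 factor, it was -0.46 with all probes at -0.25. Relative to the median of all probes, 20 of 34 genes lay below it under quantile normalization, 25 under cyclic loess and 31 under either of the other scalings. With either of these, 16 of 34 genes had all homozygous values below all others, against 16.3% and 17.8% of all probes, and still none of the 34 passed the threshold. The raw median intensity of these genes was 2794 to 3009 in homozygous and 2976 to 3572 in the other embryos, while the raw median of the whole array was higher in homozygous embryos.

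**Figure D4:**
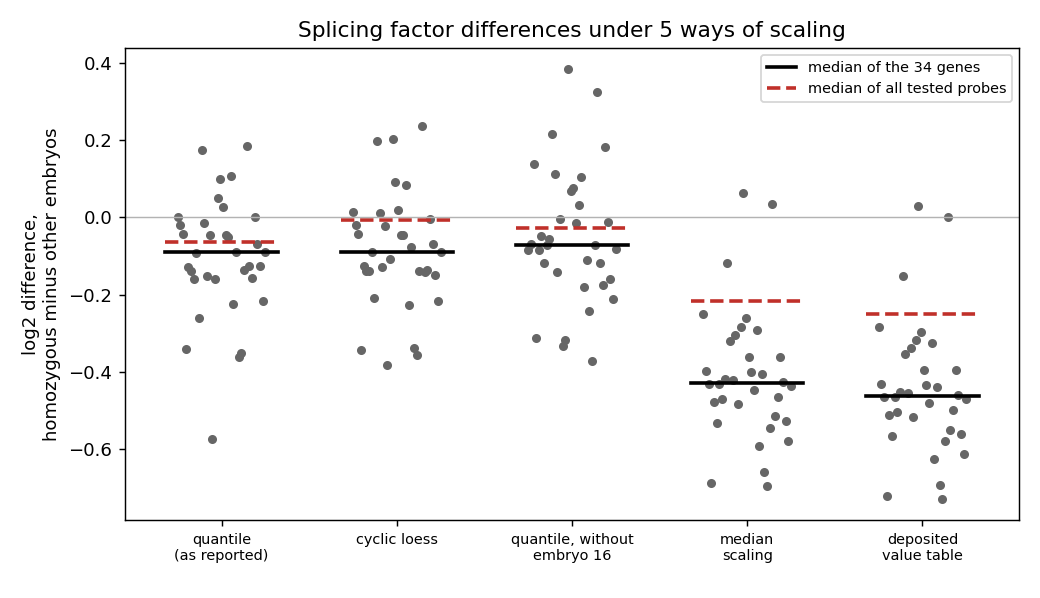
Log2 difference between homozygous and other embryos for the 34 genes (points) under quantile normalization, cyclic loess, quantile normalization without embryo 16, median scaling and the authors' deposited values. Black lines are the medians of the genes (-0.091, -0.090, -0.071, -0.43 and -0.46) and dashed lines the medians of all tested probes.

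Of 162 further splicing genes, 132 had a readable probe and 131 were tested, and none passed in any comparison. Without adjustment 18 of 131 had a p under 0.05 in homozygous against other embryos (13.7%, against 20% of all probes), 4 higher and 14 lower, with a median difference of -0.076 over the 131. The counts were 9 against wild type (6.87%, against 15.3% of all probes), 8 against heterozygous embryos (6.11%, against 11.6%) and 0 between heterozygous and wild type (against 2.3%). The difference was negative for 84 of the 131 (64.1%, against 60.2% of all probes), and the groups of these genes differed in direction. Of 12 further SR and SR-related genes, 9 were positive and 3 negative, where 39.8% of all probes were positive. Their median difference was 0.094. The directions of these groups are those under quantile normalization and were not examined under the other scalings. The group of the Prp19 complex and the catalytic steps had the most genes with an unadjusted p under 0.05. They were 5 of 19, all lower, where 13.4% of all probes were lower at that level. Among them Plrg1, a core subunit of the Prp19 complex, was at 11.75 and 11.47 in wild type, 11.57, 11.63 and 11.54 in heterozygous and 11.21, 11.26 and 11.38 in homozygous embryos. The homozygous values lay below all others, and the difference was -0.31 (SE 0.094, adjusted p = 0.169). The spliceosome subunit Syf2 was at 7.74 and 7.52 in wild type, 7.36, 7.49 and 7.02 in heterozygous and 7.17, 6.76 and 6.73 in homozygous embryos, and homozygous minus wild type was -0.75 (SE 0.20, adjusted p = 0.216).

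Mbnl3, a muscleblind protein that regulates alternative exons, had the smallest p of the further genes. It was at 7.40 and 7.43 in wild type, 7.22, 7.09 and 7.36 in heterozygous and 6.87, 6.65 and 6.33 in homozygous embryos. The homozygous values lay below all others, and the difference was -0.68 (SE 0.14, adjusted p = 0.111). Of the liver markers 4 of 5 were above background on all arrays, and of the skeletal muscle markers 7 of 7. The liver mean was 8.86 to 8.87 in wild type, 7.94 to 8.98 in heterozygous and 7.10 to 8.03 in homozygous embryos, and the muscle mean 7.65 to 7.90, 7.04 to 7.69 and 6.73 to 7.14. None of these markers passed, and their part in the Mbnl3 value was not tested. Proliferation markers, 10 of 10 above background, had means of 11.17 to 11.27, 11.18 to 11.31 and 10.99 to 11.25.

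Prpf40b, a U1-associated protein, and Srrm2, a large SR-related scaffold of nuclear speckles, had higher homozygous values than all others. Prpf40b was at 9.18 and 9.40 in wild type, 9.29, 9.39 and 9.23 in heterozygous and 9.77, 9.56 and 9.78 in homozygous embryos, a difference of 0.40 (SE 0.098, adjusted p = 0.135). Srrm2 was at 12.15 and 12.40, at 12.58, 12.42 and 12.52 and at 12.67, 12.69 and 12.76 in the same order, a difference of 0.29 (SE 0.11, adjusted p = 0.208). Neither passed, and Srrm2 gave -0.096 with median-scaled arrays and -0.13 with the authors' deposited values. Prpf40b stayed positive over all alternatives but ranged from 0.11 to 0.48, with limma adjusted p-values of 0.0756 to 0.654. In homozygous against heterozygous embryos, the genes named by the smallest p in each direction were also Rbm8a, a core protein of the exon junction complex, among the lower at -0.37 (SE 0.12, adjusted p = 0.399), and the helicase gene Ddx17 among the higher at 0.32 (SE 0.14, adjusted p = 0.437), which was missing in embryo 16. In heterozygous against wild type embryos the named genes were Hnrnpr at -0.31, Syf2 at -0.34, Gemin6, of the complex that assembles snRNPs, at 0.28 and Ppil1, a spliceosomal cyclophilin, at 0.31, and the interval of each held 0.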

How the data were processed

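Each deposited array file holds, per the file headers, a one-colour scanner intensity per spot that the authors' software had corrected by subtracting the local background median from the spot mean. The authors' deposited value table holds the same intensities divided by 1 factor per array (48.6 to 88.5). The sources used here name no scanner settings and no genome build. Of 35587 spots, 34967 were gene probes. Spots marked contaminated, irregular or masked were set missing (206 to 1634 per array), and 22526 to 26619 probes per array were above background.

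Intensities were quantile normalized, floored at the 5th percentile of positive values (4.50, or 2.17 on the log2 scale) and logged. The 23389 probes read above background on every array of some genotype were tested with lmFit and eBayes in limma 3.58.1 (R 4.3.3), two-sided, with Benjamini-Hochberg adjustment over all of them at a threshold of 0.05. Genotype means fitted to all 8 arrays gave the pairwise comparisons, and a model of 2 groups gave homozygous against other embryos. Intervals are at 95%, and the number of arrays limits the precision. The procedure was tested on simulated data.

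Probes were named through unversioned RefSeq accessions (GRCm38.p6): 14763 were named and 20204 were not. For a gene with several probes the one with the highest mean stands for it. Per-embryo values are given for the 3 genes per direction and comparison with the smallest p, for further genes outside the set the 2 per direction, and for some others chosen after their values were seen. The genes, classes and lists were chosen with earlier results of these data known. Alternatives covered scaling, floor, background correction, filter, spot marks, prior, array weights, probe choice, a Y-linked covariate, the groups fitted and each embryo left out.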

Additional observations from a re-analysis of the deposited data

Results flagged for a closer look

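Within the 5 wild type and heterozygous embryos, Ptbp1 in heterozygous embryo 15 stood far from the rest, at a log2 intensity of 10.69 where the other 4 lay between 11.09 and 11.24. The gap to its nearest neighbour was 0.72 of the whole range. It was 1 of the 34 splicing factor genes to do so, and chance flags about 1 in 20 groups.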

How the results depend on the processing

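None of the 34 genes passed the threshold under any alternative run, 21 for homozygous against other embryos and 22 for each pairwise comparison, the 8 that leave out 1 embryo each included. Of 69 gene results, 50 kept their direction in all alternatives run and 1 (the dimmer Prpf19 probe) passed in any. No paired analysis was possible because the embryo numbers all differ, and no block for slide or scan was run because the headers name no batch with over 1 array. Without a wild type embryo, the other is assumed to vary like the other groups. The causes of the shifts below were not tested.

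The median difference of the 34 genes with median-scaled arrays and with the authors' deposited values was -0.43 and -0.46 against other embryos, -0.43 and -0.47 against wild type, and -0.44 and -0.47 against heterozygous embryos. It was -0.070 against wild type with array weights, and -0.17 to -0.075 with an embryo left out. Genes with all homozygous values below the others, 3 as reported, were 16 with either of these (16.3% and 17.8% of all probes) and 5 under cyclic loess (7.02%), and 3 to 9 with an embryo left out. They were 9 without embryo 2 (14% of all probes), 6 without embryo 3 (13.6%) or 7 (18.4%), and 5 without embryo 10 (13.1%) or 11 (10.5%). Genes above, 1 as reported, were 0 with either of these (1.83% and 1.46% of all probes) and with marked spots kept (4.3%), and 1 to 6 with an embryo left out. They were 6 without embryo 16 (9.48%) and 2 without embryo 2 (9.07%) or 3 (7.2%).

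The sign turned with median-scaled arrays and with the deposited values for these, in that order. Against other embryos they were Prpf8 (-0.12, -0.15), Snrpd1 (-0.29, -0.32), Sf3b3 (-0.26, -0.30), Snrnp70 (-0.36, -0.40), Celf1 (-0.25, -0.29), Srsf9 (-0.36, -0.40) and Srrm2 (-0.096, -0.13). Against wild type they were Prpf8 (-0.11, -0.14), Snrpd1 (-0.28, -0.32) and Sf3b3 (-0.24, -0.27), and against heterozygous embryos Prpf8 (-0.12, -0.16) and Snrpd1 (-0.30, -0.33). Near 0, Celf1 was -0.0011 with the Y-linked covariate, -0.067 with array weights and -0.011 with marked spots kept. Srsf9 was -0.0035 under cyclic loess and -0.0085 with marked spots kept. Array weights gave 0.12 for Hnrnpa2b1, 0.051 for Ptbp1 and 0.026 for Snrpb, and cyclic loess 0.010 for Ptbp1. With 1 embryo left out, the difference against other embryos took both signs, at -0.0898 to 0.182 for Srsf9, -0.14 to 0.38 for Sf3b1, -0.32 to 0.066 for Sf3a3, -0.069 to 0.015 for Hnrnpa1, -0.11 to 0.11 for Ptbp1, -0.13 to 0.0014 for Rbfox2, -0.085 to 0.084 for Celf1, -0.10 to 0.031 for Snrpb and -0.20 to 0.14 for Hnrnpa2b1.

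Over all probes, the counts as reported were 25, 8, 0 and 5: homozygous embryos with the 5 others, homozygous with wild type, heterozygous with wild type, and homozygous with heterozygous. In that order they were 42, 20, 1 and 9 under cyclic loess and 114, 208, 1 and 13 with array weights, and 118, 48, 1 and 16 with the trended robust prior. The last 3 counts were 27, 2 and 10 under median scaling. In the deposited value table the counts were 45, 27, 2 and 12. Normexp gave 85, 36 and 11 in the comparisons of homozygous embryos. The first was 6 with no filter, 50 with probes above background on all 8 arrays and 58 with the Y-linked covariate. The second was 5 with the floor at the 1st percentile, 4 with no filter, 5 with marked spots kept and 0 with only the groups compared. With 1 embryo left out they were 5 to 314 (314 without embryo 7), 0 to 42, 0 to 3 and 4 to 58. The brightness of the probes over background limits Sf3a1 and Sf3b1, the dimmest.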
